A study of Homo sapiens with 91 samples.

Results

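LHFPL4, TNFRSF13C and TRIM66 are 3 human genes whose RNA stood higher in cells treated with a degrader of the kinase CDK9 than in vehicle-treated cells, and they were chosen by that measured difference. They are 3 of the 62710 genes in the count tables and were found by their Ensembl identifiers. Levels were measured by RNA sequencing in 91 libraries of 3 established human cell lines, namely MOLT4 from an acute lymphoblastic leukemia (35 libraries), PSN1 from a pancreatic adenocarcinoma (32) and RH4 from a rhabdomyosarcoma (24). Each line received DMSO as vehicle, KB-0742, a small-molecule inhibitor of CDK9, or KI-CDK9d-32, which causes the CDK9 protein to be degraded. MOLT4 and PSN1 were sampled after 2, 4 and 8 h and RH4 after 4 and 8 h. KB-0742 was not given for 2 h in PSN1, and doses are not given in the labels. The 23 groups held 4 libraries each, apart from MOLT4 vehicle at 4 h with 3 (replicates 1, 3 and 4). The labels name replicates as biological without saying whether cultures were separate, so each p-value reflects only how much these libraries differ, which may be technical. Each line is a single established line, and the series' design text writes RH1 for the line that all sample labels call RH4.

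CDK9 pairs with cyclin T to form P-TEFb, the kinase that releases paused RNA polymerase II into productive elongation, and both blocking and degrading it limit new transcription. LHFPL4 is a membrane protein that binds GABA-A receptors and holds them at inhibitory synapses of neurons. TNFRSF13C, also called BAFF-R, is the receptor through which B cells receive the survival signal BAFF, which it passes to the alternative NF-kB pathway. TRIM66 is a nuclear protein of the TIF1 family, relatives of which bind the heterochromatin protein HP1 and modified histones and repress transcription.

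In GENCODE release 29 (GRCh38) all 3 genes lie on the minus strand. LHFPL4 (ENSG00000156959) occupies chr3:9498361-9553802 and has 3 annotated transcripts of 4 exons each. TNFRSF13C (ENSG00000159958) occupies chr22:41922023-41926818 with 1 transcript of 3 exons, and the microRNA gene MIR378I lies inside it, with all 76 of its bases exonic in TNFRSF13C. TRIM66 (ENSG00000166436) occupies chr11:8612037-8682694 and has 10 transcripts of 7 to 25 exons. Its 5′ end overlaps the start of RPL27A, a ribosomal protein gene on the opposite strand, by 284 bases, of which 94 are exonic in both, and the antisense gene AC091053.2 lies within a TRIM66 intron. Reads carried no strand information, so RNA of TRIM66 and RPL27A cannot be told apart within the shared bases.

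The 250 bases before the annotated start are shown for LHFPL4 and for the TRIM66 start nearest the gene's 5′ end, because levels of both genes moved with the treatments. They are RefSeq sequences of GRCh38.p14 read 5′ to 3′ on the minus strand, with capitals marking matches to searched motifs on either strand. LHFPL4 lies at chr3:9553823-9554072 and TRIM66 at chr11:8682666-8682915.
LHFPL4: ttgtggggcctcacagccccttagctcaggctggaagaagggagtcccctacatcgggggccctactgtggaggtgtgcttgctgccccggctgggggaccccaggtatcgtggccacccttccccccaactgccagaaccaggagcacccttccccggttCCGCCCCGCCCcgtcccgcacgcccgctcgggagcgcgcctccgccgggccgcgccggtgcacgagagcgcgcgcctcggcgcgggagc
TRIM66: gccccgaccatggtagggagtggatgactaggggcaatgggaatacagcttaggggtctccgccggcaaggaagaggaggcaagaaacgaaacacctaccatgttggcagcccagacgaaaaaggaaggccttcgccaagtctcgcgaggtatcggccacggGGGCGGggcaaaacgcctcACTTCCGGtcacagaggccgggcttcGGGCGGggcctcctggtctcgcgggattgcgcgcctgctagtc
The LHFPL4 window is 73.6% G or C with 25 CpG dinucleotides, against medians of 58% and 11 over 35116 promoters of the same length. Its capitals are 2 overlapping GC boxes (GGGCGG, on the other strand) that begin at -89 and -84 from the start. The TRIM66 window is 63.2% G or C with 20 CpG and holds GC boxes at -88 and -43 and an ETS core (CCGGAAGT, on the other strand) at -69. That TRIM66 window lies within the annotated span of RPL27A (chr11:8682411-8714759), so its content and motifs are not those of TRIM66 alone. Across all promoters 42.6% hold a GC box and 3.42% the ETS core. Windows at the other annotated TRIM66 starts were 51.6% and 48.4% G or C, with 10 and 4 CpG, the former with a CCAAT box at -245 and an E-box (CACGTG) at -12 and the latter with a CCAAT box at -31. The window with 10 CpG also lies within the RPL27A span. CCAAT occurs in 32.0% and CACGTG in 6.34% of all promoters. TATAAA, TGACGTCA and the kappaB motif were also searched, occur in 10.7%, 1.65% and 0.179% of all promoters, and have no match in these windows. TNFRSF13C is named only, without a sequence.

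Gene counts summed to 1598283 to 3240753 per library in MOLT4, 1998712 to 3227113 in PSN1 and 1670111 to 3136769 in RH4, and 11664, 12471 and 12058 genes passed the filter on low counts. All 3 genes passed in all lines, but LHFPL4 passed mainly through degrader libraries. It reached the filter's level (3.68 CPM in MOLT4, 3.61 in PSN1 and 3.76 in RH4) in 32 of 32 degrader, 9 of 31 vehicle and 5 of 28 inhibitor libraries, in CPM without TMM scaling, which differ from the CPM given below. Spike-in RNA added in equal amount per lysate took 11.7% to 61.5% of the counts in MOLT4, 9.87% to 22.4% in PSN1 and 7.51% to 19.2% in RH4. 4 MOLT4 libraries stood apart with more than 35%, namely KI-CDK9d-32 replicates 1 (37.1%) and 3 (61.5%) at 8 h, KI-CDK9d-32 replicate 3 at 4 h (39.5%) and KB-0742 replicate 3 at 4 h (49.4%). Each line expressed its own lineage markers, with summed levels of at least 1386 CPM in MOLT4, 2765 CPM in PSN1 and 2680 CPM in RH4, while markers of another line reached at most 87.4 CPM. Of the 14 rhabdomyosarcoma markers, 3 had counts in MOLT4 degrader libraries at 8 h. The list's summed level was 23.3 to 26.6 CPM there, against 0 to 0.967 CPM in vehicle. That vehicle level lies below the filter's level, so markers tested from this list were kept mainly through degrader libraries and no call is given. At 4 h the sums were 5.90 to 18.9 CPM with degrader and 0.278 to 3.79 CPM in vehicle, and MYOD1 and MYOG were at 0 in MOLT4 degrader libraries at all times. In PSN1 at 8 h, 9 of the 14 had counts with degrader (7.44 to 22.5 CPM summed, against 0 to 3.43 CPM in vehicle). MYOG, MYF5, CHRND, TNNT3 and OLIG2 were at 0 there, while MYOD1 and DES had counts. With KB-0742 at 8 h, 9 of the 14 also had counts in PSN1 (0.858 to 9.81 CPM summed). The part of these changes in the PSN1 results was not tested. CDK9 mRNA does not check the degrader's labels, since the drug acts on the protein.

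Levels below are CPM, counts scaled to a common library size after TMM scaling, in replicate order, and are relative to the other RNA of the same library. CPM compares 1 gene between libraries and does not compare genes with each other.

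LHFPL4 stood at 0.350 to 9.75 CPM in vehicle libraries of all lines and at 12.7 to 125 CPM in every degrader library. In MOLT4, vehicle libraries had 0.798, 2.21, 2.07 and 3.26 CPM at 2 h, 1.58, 1.11 and 2.98 CPM at 4 h and 0.543, 0.931, 0.350 and 1.29 CPM at 8 h. KB-0742 libraries had no LHFPL4 count in any of the 4 libraries at 2 h, 1.29, 0.526, 0 and 0 CPM at 4 h and 14.9, 4.69, 3.59 and 2.65 CPM at 8 h. Degrader libraries had 27.7, 21.1, 16.7 and 12.7 CPM at 2 h, 45.7, 39.4, 37.8 and 26.7 CPM at 4 h and 53.5, 40.0, 67.0 and 40.8 CPM at 8 h. At each time all 4 degrader libraries lay above all vehicle and all inhibitor libraries, without overlap. Across all genes tested in MOLT4, 9.97% (4.56% as higher), 32.6% (13.6% as higher) and 49.6% (20.8% as higher) passed the test between degrader and vehicle at 2, 4 and 8 h, values given as background only. The log2 fold change of LHFPL4 over vehicle was 3.21 ± 0.41 at 2 h, 4.28 ± 0.46 at 4 h and 5.92 ± 0.48 at 8 h (± SE, n = 4 degrader libraries at each time against 4, 3 and 4 of vehicle).

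PSN1 showed the same order, with a higher start at 2 h. Vehicle libraries had 6.20, 9.75, 7.77 and 7.55 CPM at 2 h, 2.32, 1.82, 2.11 and 6.69 CPM at 4 h and 0.762, 0.843, 3.82 and 0.820 CPM at 8 h. KB-0742 libraries had 0, 0.530, 1.25 and 1.27 CPM at 4 h and 3.86, 6.95, 11.5 and 13.5 CPM at 8 h. Degrader libraries had 30.2, 35.6, 59.5 and 34.3 CPM at 2 h, 50.7, 63.5, 96.8 and 86.6 CPM at 4 h and 57.5, 87.2, 89.2 and 125 CPM at 8 h. The degrader libraries again lay above all vehicle and inhibitor libraries of their time, and 0.473% (0.128% as higher), 7.36% (3.62% as higher) and 20.6% (11% as higher) of PSN1 genes passed the degrader test at 2, 4 and 8 h. Log2 fold changes over vehicle were 2.35 ± 0.35, 4.48 ± 0.39 and 5.73 ± 0.44 at 2, 4 and 8 h. A single vehicle library moved the later values, which were 5.13 at 4 h without vehicle replicate 4 and 6.71 at 8 h without vehicle replicate 3.

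RH4 vehicle libraries had 1.70, 2.73, 1.97 and 1.49 CPM at 4 h and 0.570, 2.84, 2.28 and 5.30 CPM at 8 h. KB-0742 libraries overlapped them, with 2.94, 3.96, 1.95 and 2.46 CPM at 4 h and 2.75, 1.90, 2.93 and 2.47 CPM at 8 h. Degrader libraries had 69.4, 46.0, 35.7 and 39.5 CPM at 4 h and 98.3, 67.7, 48.5 and 81.0 CPM at 8 h, all far above both. Of all RH4 genes, 5.34% (3.47% as higher) and 15.3% (9.2% as higher) passed the degrader test at 4 and 8 h. The log2 fold changes of LHFPL4 over vehicle were 4.52 ± 0.33 and 4.72 ± 0.31. Over the 8 degrader comparisons, between 0.11% and 0.80% of the genes tested had a higher fold change than LHFPL4. These degrader differences chose the gene, so they are a description and carry no test.

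**Figure D1:**
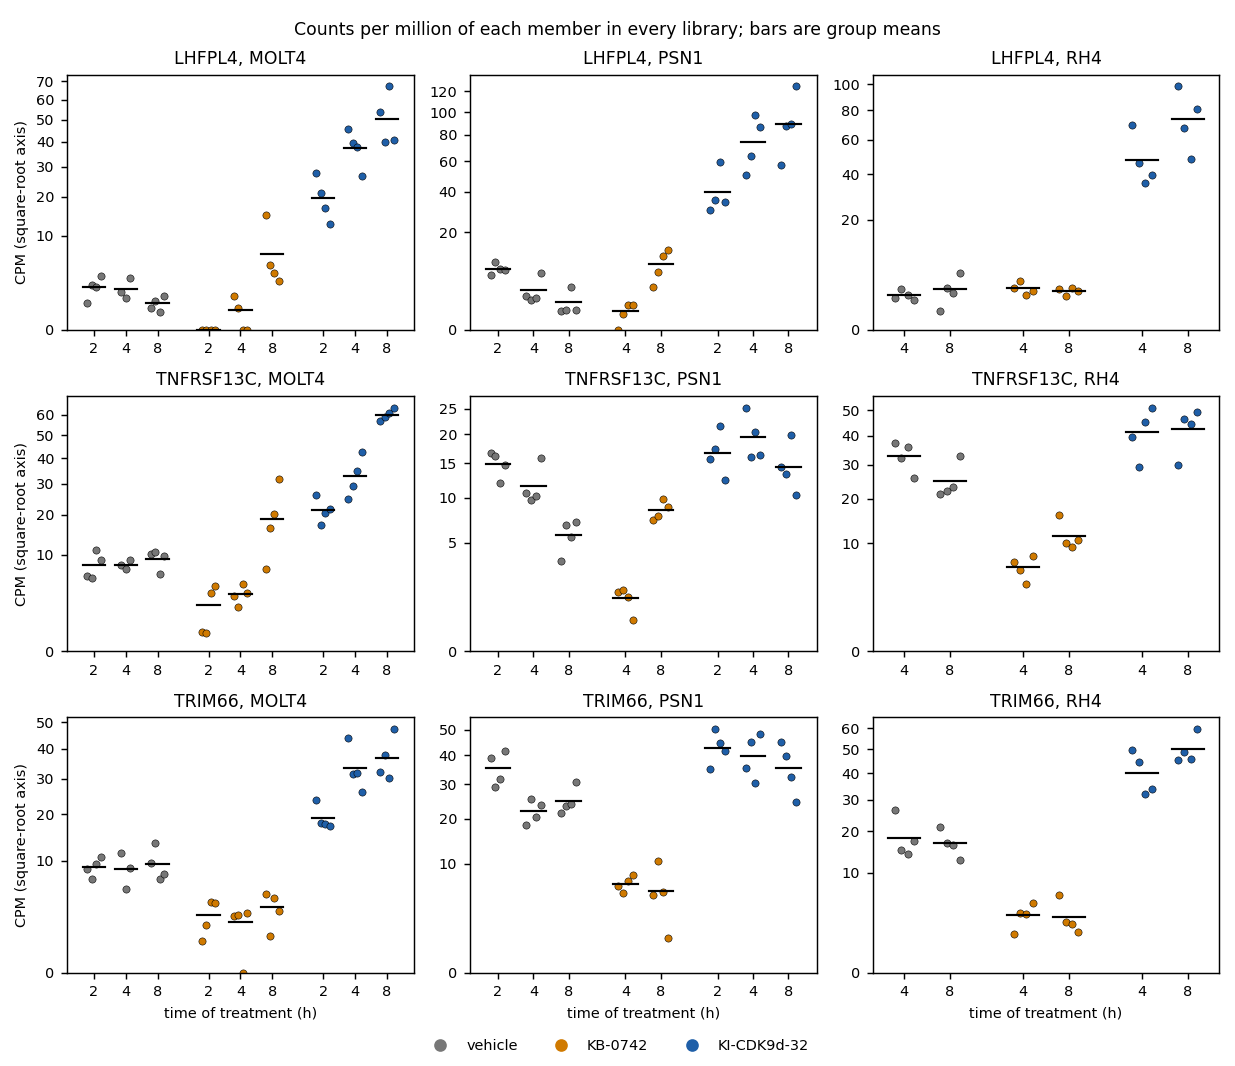
CPM (square-root axis) of LHFPL4, TNFRSF13C and TRIM66 in each library, by line, compound and time, with points for libraries and bars for group means. LHFPL4 degrader libraries stood at 12.7 to 125 CPM, above all vehicle and inhibitor libraries of their line and time, while TRIM66 inhibitor libraries stood at 0 to 10.6 CPM.

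TNFRSF13C, the BAFF receptor, had counts in every vehicle library of all lines, none of which is a B-cell line. In MOLT4, vehicle libraries had 6.12, 5.81, 10.9 and 8.90 CPM at 2 h, 7.89, 7.23 and 8.93 CPM at 4 h and 10.0, 10.6, 6.31 and 9.67 CPM at 8 h. KB-0742 libraries had 0.397, 0.362, 3.63 and 4.59 CPM at 2 h, 3.24, 2.10, 4.85 and 3.65 CPM at 4 h and 7.20, 16.2, 20.2 and 31.8 CPM at 8 h. Degrader libraries had 26.2, 17.0, 20.4 and 21.8 CPM at 2 h, 24.7, 29.2, 34.9 and 42.4 CPM at 4 h and 56.8, 58.8, 60.6 and 63.5 CPM at 8 h. The degrader groups stood above vehicle without overlap at all times, and the inhibitor group lay below vehicle at 2 and 4 h and spread across and above it at 8 h. Of all MOLT4 genes 9.97%, 32.6% and 49.6% passed the degrader test at 2, 4 and 8 h. Degrader log2 fold changes over vehicle were 1.42 ± 0.31, 2.01 ± 0.34 and 2.70 ± 0.31 at 2, 4 and 8 h.

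In PSN1 the degrader difference was small at first. Vehicle libraries had 16.6, 16.3, 12.0 and 14.8 CPM at 2 h, 10.6, 9.70, 10.2 and 15.9 CPM at 4 h and 3.43, 6.74, 5.59 and 7.11 CPM at 8 h. KB-0742 libraries had 1.48, 1.59, 1.25 and 0.425 CPM at 4 h and 7.29, 7.77, 9.83 and 8.84 CPM at 8 h. Degrader libraries had 15.7, 17.3, 21.5 and 12.5 CPM at 2 h, 25.2, 16.0, 20.4 and 16.4 CPM at 4 h and 14.5, 13.3, 19.8 and 10.4 CPM at 8 h. At 2 h only 2 of 4 degrader libraries exceeded all vehicle libraries, and at 4 and 8 h all 4 did. Of all PSN1 genes 7.36% and 20.6% passed the degrader test at 4 and 8 h. Degrader log2 fold changes were 0.17 ± 0.26, 0.74 ± 0.26 and 1.33 ± 0.28. In RH4, vehicle libraries had 37.5, 32.3, 36.0 and 25.7 CPM at 4 h and 21.4, 22.2, 23.4 and 32.9 CPM at 8 h. KB-0742 libraries had 6.85, 5.72, 3.90 and 7.87 CPM at 4 h and 15.9, 10.1, 9.37 and 10.7 CPM at 8 h, all below vehicle. Degrader libraries had 39.8, 29.3, 45.2 and 51.1 CPM at 4 h and 29.9, 46.4, 44.4 and 49.2 CPM at 8 h, and 3 of 4 exceeded all vehicle libraries at each time. Log2 fold changes over vehicle were 0.32 ± 0.20 at 4 h and 0.77 ± 0.21 at 8 h.

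TRIM66, the TIF1-family protein, had degrader libraries mostly above vehicle and inhibitor libraries all below it. In MOLT4, vehicle libraries had 8.51, 6.91, 9.32 and 10.7 CPM at 2 h, 11.3, 5.56 and 8.66 CPM at 4 h and 9.49, 13.3, 7.01 and 7.73 CPM at 8 h. KB-0742 libraries had 0.794, 1.81, 3.96 and 3.83 CPM at 2 h, 2.59, 2.63, 0 and 2.84 CPM at 4 h and 4.95, 1.04, 4.49 and 3.03 CPM at 8 h. Degrader libraries had 23.7, 17.9, 17.7 and 17.1 CPM at 2 h, 43.9, 31.5, 31.9 and 26.1 CPM at 4 h and 32.0, 37.6, 30.3 and 47.2 CPM at 8 h. The 3 treatments did not overlap at any time. As background over all lines and times, 23.9% to 49.2% of all genes passed the test with KB-0742 and 0.473% to 49.6% with degrader. The share of all genes without overlap is another measure and is not given. Degrader log2 fold changes over vehicle were 1.11 ± 0.30, 1.97 ± 0.33 and 1.97 ± 0.31 at 2, 4 and 8 h.

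PSN1 had the highest vehicle levels of TRIM66 and the smallest degrader differences. Vehicle libraries had 39.2, 29.3, 31.6 and 41.7 CPM at 2 h, 18.6, 25.5, 20.5 and 23.7 CPM at 4 h and 21.7, 23.6, 24.1 and 30.9 CPM at 8 h. KB-0742 libraries had 6.41, 5.30, 7.10 and 8.07 CPM at 4 h and 5.15, 10.6, 5.56 and 1.04 CPM at 8 h. Degrader libraries had 35, 50.1, 44.6 and 41.7 CPM at 2 h, 35.6, 44.9, 30.5 and 48.2 CPM at 4 h and 45.1, 39.9, 32.4 and 24.8 CPM at 8 h. The inhibitor libraries lay below all vehicle libraries, and 3, 4 and 3 of 4 degrader libraries exceeded all vehicle libraries at 2, 4 and 8 h. Degrader log2 fold changes were 0.28 ± 0.23, 0.85 ± 0.24 and 0.50 ± 0.24. At 2 h in PSN1, rhabdomyosarcoma markers were also present in some libraries, with summed levels of 2.14 to 68.9 CPM in vehicle and 1.58 to 71.7 CPM with degrader, and their part in the levels at that time was not tested. In RH4, vehicle libraries had 26.4, 15, 14.1 and 17.3 CPM at 4 h and 21.4, 16.8, 16.2 and 12.8 CPM at 8 h. KB-0742 libraries had 1.47, 3.52, 3.41 and 4.92 CPM at 4 h and 6.05, 2.53, 2.34 and 1.65 CPM at 8 h. Degrader libraries had 49.9, 44.7, 31.9 and 33.8 CPM at 4 h and 45.6, 49.0, 46.0 and 59.4 CPM at 8 h. The 3 treatments did not overlap in RH4 either, and degrader log2 fold changes were 1.13 ± 0.23 and 1.57 ± 0.23. Of all RH4 genes 5.34% and 15.3% passed the degrader test at 4 and 8 h, and 31.6% and 45.5% the KB-0742 test.

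RPL27A, the ribosomal protein gene that shares 94 exonic bases with TRIM66, held far more counts. With TMM scaling it moved opposite to TRIM66 with KB-0742 and in the same direction with degrader. Its mean was 1183 CPM in MOLT4 vehicle at 2 h, 2046 CPM with KB-0742 and 1565 CPM with degrader. Relative to other genes RPL27A passed the test as higher with KB-0742 in all 7 comparisons (log2 fold changes of 0.64 to 1.31) and with degrader in 7 of 8 (0.38 to 1.56), whereas with spike-in scaling its differences were at or below 0 in all of these but RH4 degrader at 4 h (0.03). TRIM66 CPM made up 0.712% to 0.816% of RPL27A CPM in MOLT4 vehicle groups, 0.0830% to 0.127% with KB-0742 and 1.08% to 1.64% with degrader. In RH4 the shares were 1.02% and 1.12% in vehicle, 0.0770% and 0.103% with KB-0742 and 1.83% and 1.87% with degrader. In PSN1 they were 1.60% to 2.78% in vehicle, 0.266% and 0.312% with KB-0742 and 1.68% to 2.79% with degrader. TRIM66 was low with KB-0742 where RPL27A was high, and high with degrader where RPL27A was high. How many TRIM66 counts come from reads of the shared bases was not tested.

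**Figure D2:**
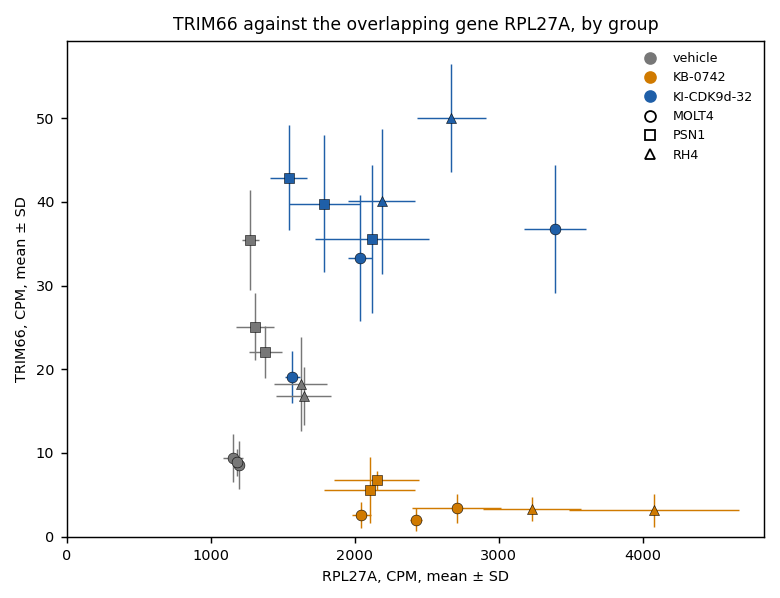
Group means ± SD of TRIM66 (vertical axis) against RPL27A (horizontal axis), in CPM, for the 23 groups by line and compound. KB-0742 groups sit lowest for TRIM66 at RPL27A means of 2046 CPM or more, and degrader groups sit highest within each line.

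Levels of the 3 genes can be set beside each other only per length, as TPM (length-scaled shares of a library, from the deposited log2 values). The highest mean of LHFPL4 was 11.2 TPM in RH4 with degrader at 8 h, followed by 11.1 TPM in PSN1 with degrader at 8 h. TNFRSF13C was highest in RH4 with degrader at 4 h (9.15 TPM), next to RH4 vehicle at 4 h (8.73 TPM). TRIM66 reached 3.41 TPM in RH4 with degrader at 8 h. The lowest group means were 0 TPM for LHFPL4 in MOLT4 with KB-0742 at 2 h, 0.192 TPM for TNFRSF13C in PSN1 with KB-0742 at 4 h and 0.144 TPM for TRIM66 in MOLT4 with KB-0742 at 4 h. With the 23 groups ranked by TPM, neighbours overlapped in 21 of 22 pairs for LHFPL4, 22 of 22 for TNFRSF13C and 21 of 22 for TRIM66, so single steps of the order do not exceed the spread. The non-overlapping step was MOLT4 degrader at 2 h above PSN1 vehicle at 2 h for LHFPL4, and MOLT4 degrader at 2 h above MOLT4 vehicle at 8 h for TRIM66.

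The inhibitor comparison asks whether blocking CDK9 activity also moved the 3 genes. It can be tested, since KB-0742 against vehicle was not the difference that chose them. That choice used the same vehicle libraries, and may also have drawn on degrader against inhibitor, which shares the inhibitor libraries, so the test is not fully independent of it. Tests are edgeR quasi-likelihood tests with Benjamini-Hochberg adjustment over all genes of a comparison. TRIM66 fell with KB-0742 in every line and at every time sampled, by log2 fold changes of -1.73 ± 0.37, -1.97 ± 0.44 and -1.45 ± 0.37 in MOLT4 at 2, 4 and 8 h (adjusted p = 0.00034, 0.00036 and 0.0011). In PSN1 the values were -1.70 ± 0.29 and -2.12 ± 0.29 at 4 and 8 h (adjusted p = 2.5e-05 and 3.8e-07). In RH4 they were -2.44 ± 0.32 and -2.34 ± 0.34 (adjusted p = 8.3e-08 and 3.2e-07). All 4 inhibitor libraries lay below all vehicle libraries in each of these 7 comparisons. As background, of all MOLT4 genes 26.1% passed (13.2% as higher and 12.9% as lower) at 2 h, 35.8% passed (18.1% as higher and 17.7% as lower) at 4 h and 49.2% passed (23.4% as higher and 25.8% as lower) at 8 h. Of all PSN1 genes 23.9% passed (11.3% as higher and 12.6% as lower) at 4 h and 30.2% passed (15.1% as higher and 15.1% as lower) at 8 h. Of all RH4 genes 31.6% passed (15.4% as higher and 16.2% as lower) at 4 h and 45.5% passed (22.5% as higher and 23% as lower) at 8 h.

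TNFRSF13C fell early with KB-0742 and stood nearer or above vehicle later. In MOLT4 it fell at 2 h (-1.78 ± 0.41, adjusted p = 0.00086) and at 4 h (-1.22 ± 0.44, adjusted p = 0.026) and rose at 8 h (1.05 ± 0.32, adjusted p = 0.0056), where spike-in scaling turned the difference to -0.19 and limma on log2(TPM + 1) gave 0.13 without a call. The 4 h call was lost without KB-0742 replicate 1, 2 or 4 or without vehicle replicate 4 (adjusted p up to 0.0895), and the 8 h call was lost without KB-0742 replicate 4 (log2 fold change 0.66, adjusted p = 0.102). In PSN1 it fell at 4 h (-3.28 ± 0.38, adjusted p = 1.9e-08) and did not pass at 8 h (0.55 ± 0.30, adjusted p = 0.16; -0.38 with spike-in scaling), although all 4 inhibitor libraries then lay above all vehicle libraries. In RH4 it fell at both times (-2.44 ± 0.26 at 4 h and -1.10 ± 0.25 at 8 h, adjusted p = 7.3e-10 and 0.0003).

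LHFPL4 was too sparse in MOLT4 for a fitted fold change at the early times. It reached the filter's level there in 2 of 11 vehicle and 2 of 12 inhibitor libraries, against 12 of 12 with degrader. The MOLT4 tests below therefore rest on a gene kept mainly through degrader libraries. At 2 h the 4 KB-0742 libraries held 0 counts against 30 over the 4 vehicle libraries, at least 7.48-fold lower with a floor of 3 counts over the group (adjusted p = 0.00018). At 4 h they held 3 counts against 21, a count ratio of 0.215 (95% interval 0.0411 to 0.721, counting error only), and the gene did not pass the test (adjusted p = 0.051). It passed with the replicate block (adjusted p = 0.0478), DESeq2 (0.0489), no count filter (0.0382), spike-in scaling (0.000682) and limma on log2(TPM + 0.1) (0.00199), and did not when only the groups compared were fitted (0.157). At 8 h LHFPL4 rose with the inhibitor too, by 2.97 ± 0.54 (adjusted p = 1.3e-05), a value that was 2.14 without replicate 1, the library at 14.9 CPM, and 1.54 with spike-in scaling. In PSN1 it fell at 4 h (-1.98 ± 0.70, adjusted p = 0.039) and rose at 8 h (2.40 ± 0.51, adjusted p = 0.00051). The PSN1 call at 4 h was lost without KB-0742 replicate 1, 2 or 3 or vehicle replicate 4 (adjusted p up to 0.217), and the 8 h value was 3.38 without vehicle replicate 3 and 1.43 with spike-in scaling. In RH4 the gene passed the filter through the degrader libraries (8 of 8 at its level, against 1 of 8 of vehicle and 0 of 8 of inhibitor), so the inhibitor differences are given as values only, 0.48 ± 0.48 at 4 h (-0.58 with spike-in scaling) and -0.12 ± 0.49 at 8 h (-1.71).

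**Figure D3:**
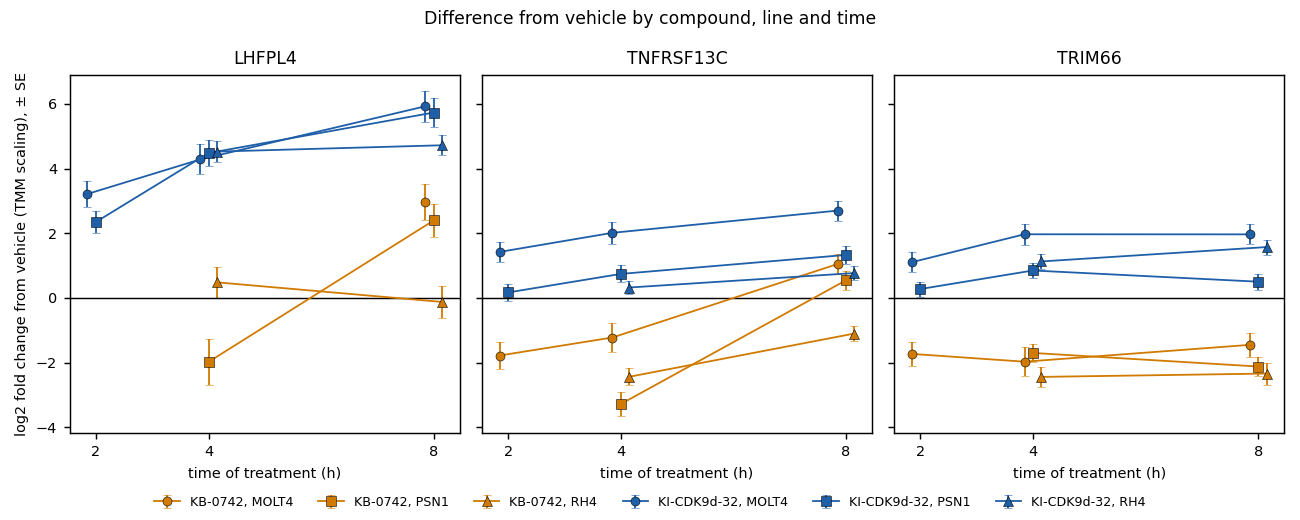
Log2 fold changes over vehicle (± SE) against hours of treatment for KB-0742 and KI-CDK9d-32, by gene and line. The values of LHFPL4 in MOLT4 with KB-0742 at 2 and 4 h are left out because those groups held 0 and 3 counts, TRIM66 inhibitor values lie between -2.44 and -1.45, and TRIM66 degrader values lie between 0.28 and 1.97.

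Whether the inhibitor's effect itself changed between 4 and 8 h was tested as an interaction. The LHFPL4 effect was higher at 8 h by 5.05 ± 0.99 in MOLT4 (adjusted p = 0.0002) and 4.37 ± 0.86 in PSN1 (adjusted p = 0.0045), beside a value of -0.61 ± 0.69 in RH4, where the gene is too low without degrader to be tested. The MOLT4 value rests on a 4 h group with 3 counts and on a gene kept mainly through degrader libraries. It ranged from 4.22 without KB-0742 replicate 1 at 8 h to 6.12 without KB-0742 replicate 1 at 4 h. The PSN1 value was 5.36 without vehicle replicate 3 at 8 h and 3.72 without vehicle replicate 4 at 4 h. TNFRSF13C showed the same direction in all lines, by 2.27 ± 0.54 in MOLT4, 3.83 ± 0.49 in PSN1 and 1.34 ± 0.36 in RH4 (adjusted p = 0.002, 4.6e-06 and 0.016). The RH4 call was lost without KB-0742 replicate 1 at 8 h (adjusted p = 0.0618). With spike-in scaling the calls in MOLT4 were lost (5.11 for LHFPL4, adjusted p = 0.14, and 2.56 for TNFRSF13C, adjusted p = 0.35), as was that in RH4 (0.82, adjusted p = 0.38), and those in PSN1 were not (4.13 and 3.67). TRIM66 did not pass in any line (0.52 ± 0.60 in MOLT4, -0.42 ± 0.42 in PSN1 and 0.10 ± 0.51 in RH4, adjusted p = 0.62, 0.71 and 0.94). Across all genes, 17.7% (7.84% as higher), 1.88% (1.31% as higher) and 8.49% (4.37% as higher) passed this test in MOLT4, PSN1 and RH4. Between 2 and 4 h in MOLT4, where 3.15% (1.58% as higher) of genes passed, TNFRSF13C (0.56 ± 0.63) and TRIM66 (-0.24 ± 0.60) did not. Vehicle levels were compared between neighbouring times in 15 tests of the 3 genes, and 0 passed with edgeR or with DESeq2, against 3 at an unadjusted p under 0.05, all lower later in PSN1 (LHFPL4 by -1.23 and TRIM66 by -0.68 from 2 to 4 h, and TNFRSF13C by -1.01 from 4 to 8 h). Of all genes 0.00802% passed in PSN1 from 2 to 4 h and 0% in the other vehicle comparisons.

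Set directly against the inhibitor, all 4 degrader libraries exceeded all inhibitor libraries for each gene in each of 7 comparisons at matched times, though doses are not given in the labels and cannot be matched. In these comparisons 18.3% (8.2% as higher), 35.7% (14.6% as higher) and 58.5% (28.9% as higher) of all MOLT4 genes passed at 2, 4 and 8 h. The shares were 17.4% (10% as higher) and 24.8% (12% as higher) in PSN1, with 25.8% (13.4% as higher) and 38.4% (19.1% as higher) in RH4 at 4 and 8 h. For TRIM66 the log2 difference between degrader and inhibitor was 2.83, 3.94 and 3.41 in MOLT4, 2.55 and 2.62 in PSN1, with 3.57 and 3.91 in RH4. For TNFRSF13C it was 3.20, 3.24 and 1.65 in MOLT4, 4.02 and 0.78 in PSN1, with 2.76 and 1.87 in RH4. LHFPL4 differed by 6.45 and 3.33 in PSN1, 4.04 and 4.84 in RH4 and 2.96 in MOLT4 at 8 h, the last being 3.79 without KB-0742 replicate 1. In MOLT4 LHFPL4 was at least 71.2-fold higher with degrader at 2 h (253 counts against 0, floor of 3 counts over the group) and 94.7-fold higher at 4 h (348 against 3, interval 32.2 to 462, counting error only). The fitted log2 difference at 4 h, which depends on the prior count, was 6.36 and became 7.43 without KB-0742 replicate 1. With spike-in scaling the MOLT4 differences at 8 h were 1.49 for LHFPL4, 0.077 for TNFRSF13C and 2.03 for TRIM66, where the median over all genes was -1.46, and the degrader stood above the inhibitor for each gene in each of the 7 comparisons. These differences are a description, like those over vehicle.

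Scaling to the spike-ins instead of to the other genes lowered the treated values, as treated libraries held a lower ratio of gene counts to spike-in counts. In these bulk lysates, fewer cells and less RNA per cell cannot be told apart. The median over all genes shifted with degrader to -0.41, -1.13 and -2.99 (log2) in MOLT4 at 2, 4 and 8 h, to -0.29, -0.61 and -1.01 in PSN1 and to -0.36 and -0.92 in RH4 at 4 and 8 h. With KB-0742 it shifted to -0.86, -1.38 and -1.41 in MOLT4, -0.92 and -0.94 in PSN1, with -1.12 and -1.66 in RH4. Genes called higher made up 47.3% to 50.5% of the calls for KB-0742 with TMM and 0.610% to 2.51% with spike-in scaling. For degrader those shares were 27.1% to 64.9% and 0.934% to 15.2%. LHFPL4 stayed above vehicle with degrader in all 8 comparisons, at 2.77, 3.18 and 3.03 in MOLT4, 2.12, 4.00 and 4.75 in PSN1, with 4.11 and 3.76 in RH4. TNFRSF13C was at 1.03, 1.06 and -0.11 in MOLT4, -0.07, 0.21 and 0.39 in PSN1, with 0.01 and -0.11 in RH4, so its direction turned in MOLT4 and RH4 at 8 h and in PSN1 at 2 h. TRIM66 was at 0.67, 0.86 and -0.75 in MOLT4, 0.05, 0.26 and -0.44 in PSN1, with 0.76 and 0.71 in RH4, with the direction turned at 8 h in MOLT4 and PSN1. Relative to the shifted median, all of these values were higher. TRIM66 was lower with KB-0742 under both scalings in all 7 comparisons. Without the 4 libraries over 35% spike-in, the MOLT4 degrader values at 8 h were 5.65, 2.76 and 2.19 for LHFPL4, TNFRSF13C and TRIM66 with TMM.

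**Figure D4:**
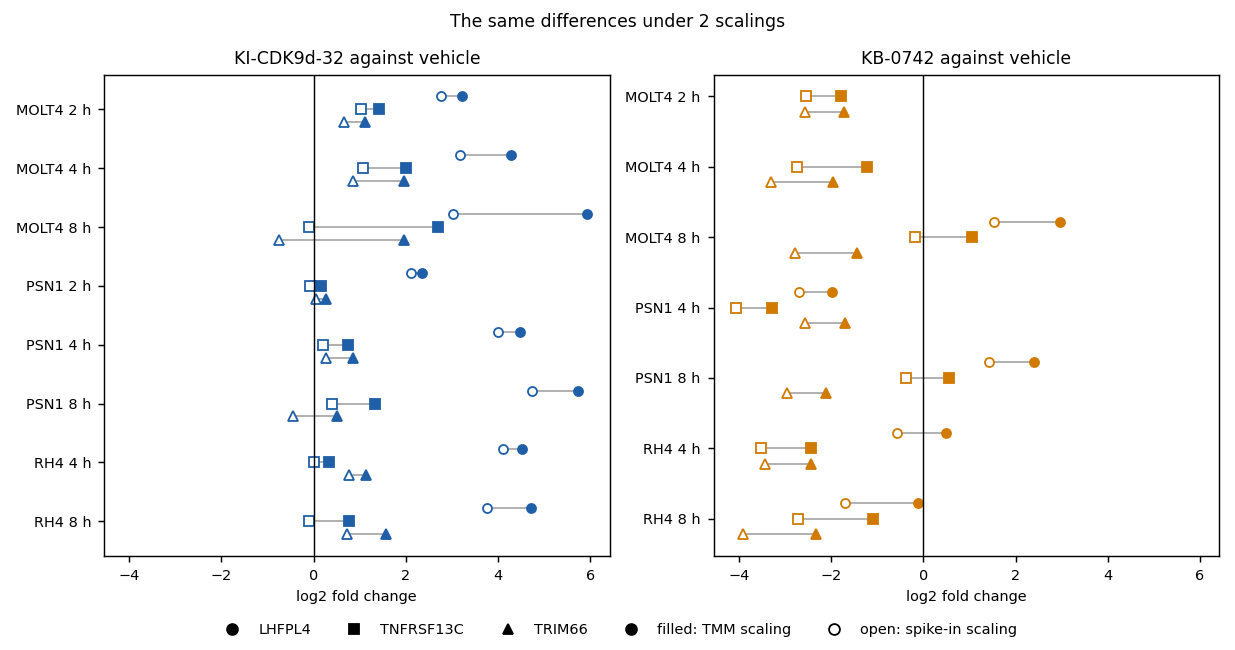
Log2 differences from vehicle under TMM scaling (filled) and spike-in scaling (open) for each gene, line, compound and time, without LHFPL4 in MOLT4 with KB-0742 at 2 and 4 h. LHFPL4 with degrader stays above 0 under both, while TRIM66 and TNFRSF13C with degrader in MOLT4 at 8 h move from 1.97 to -0.75 and from 2.70 to -0.11.

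Of 17 other genes of the BAFF system and the alternative NF-kB pathway, 6 were tested in MOLT4, 8 in PSN1 and 7 in RH4. At least 1 was called in 5 of 8 degrader and 3 of 7 KB-0742 comparisons and never more than 2, for example 1 of 6 with degrader in MOLT4 at 8 h, where 49.6% of all genes passed. The calls with degrader were lower ones, for TRAF2, an adaptor that restrains the pathway, in MOLT4 at 2, 4 and 8 h (-0.90, -1.46 and -0.96) and in PSN1 at 4 h (-0.81), MAP3K14, the NF-kB-inducing kinase, in MOLT4 at 4 h (-2.20), and RELB, the pathway's transcription factor, in PSN1 at 8 h (-3.04). With KB-0742, TRAF2 in MOLT4 at 8 h (0.71) and TRAF2 and MAP3K14 in PSN1 (1.01 and 1.71) and RH4 (0.63 and 0.87) at 8 h passed as higher, of which those in MOLT4 and RH4 turned with spike-in scaling. The list's median log2 change lay between -0.53 and 0.13 with degrader and between -0.36 and 0.37 with KB-0742, beside medians over all genes between -0.18 and 0.00 and between -0.10 and -0.04. B-lineage markers, among which the receptor is usually found, were few: 5 of 16 were tested in MOLT4, 0 in PSN1 and 2 in RH4. BLNK, a B-cell adaptor, had 29 counts with degrader in MOLT4 at 4 h against 4 in vehicle and 97 against 0 at 8 h. With such low vehicle counts, its place among the tested genes rests largely on degrader libraries, so only the counts are given. VPREB1, part of the pre-B receptor, passed as lower with degrader at both times (-0.95 and -1.82). Of all MOLT4 genes 32.6% and 49.6% passed there. MS4A1 and PAX5 were at 0 counts in all MOLT4 groups, vehicle included. The summed level of these markers was 11.7 to 103 CPM in MOLT4 libraries, 0.493 to 8.50 CPM in PSN1 and 67.5 to 156 CPM in RH4.

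Among 21 genes of GABA-A receptors and the inhibitory synapse, 6 were tested in MOLT4, 6 in PSN1 and 4 in RH4. GABARAP, which links the receptor to transport, passed as higher with degrader in 5 of 8 comparisons (0.48 to 1.06), all but RH4 at 4 h turned by spike-in scaling. NLGN3, a synaptic adhesion protein, passed as higher in MOLT4 with degrader at 8 h (2.32) and turned with spike-in scaling. GABARAP also passed as higher with KB-0742 in all 7 comparisons (0.60 to 1.2), as did CLPTM1, which restrains receptor delivery, in RH4 at 8 h (0.56), all turned by spike-in scaling. With KB-0742, GPHN (gephyrin, the scaffold) fell in MOLT4 at 4 and 8 h (-0.85 and -0.77) and in PSN1 and RH4 at 8 h (-1.40 and -1.06), and the receptor subunit gene GABRE fell in PSN1 (-2.65 and -1.71). List medians lay between -0.18 and 0.60 with degrader and between -0.74 and 0.50 with KB-0742. Of the 5 other LHFPL genes, 1 was tested in MOLT4 and 2 each in PSN1 and RH4. LHFPL5, a partner of the hair-cell mechanotransduction channel, was also called in MOLT4, where it rose with KB-0742 at 4 h (2.27 ± 0.65, 47 counts against 15), and with degrader at 8 h it held 3 counts against 35 and passed as lower.

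All 10 listed TIF1-family, HP1 and partner genes were tested. CBX5, which encodes HP1 alpha, passed as higher with degrader in MOLT4 (0.59, 1.05 and 1.59 at 2, 4 and 8 h), in PSN1 at 4 and 8 h (1.41 and 1.75) and in RH4 (0.55 and 0.83), and turned with spike-in scaling in MOLT4 at 4 and 8 h and RH4 at 8 h. With KB-0742 TRIM33 rose in MOLT4 at 4 h (1.60) and in PSN1 (1.21 and 1.30). TRIM24 rose with KB-0742 in MOLT4 at 8 h (1.27, or -0.05 with spike-in scaling). Neither they nor TRIM28 passed as lower with the inhibitor. Of the 10, 1 passed as lower with KB-0742 in MOLT4 at 8 h, PSN1 at 4 h and RH4 at 8 h. Each KB-0742 comparison had 2 or 3 as higher. With degrader 1 passed as lower in MOLT4 at 4 and 8 h, and 0 to 3 passed as higher. Between 23.9% and 49.2% of all genes passed with KB-0742, and 0.473% to 49.6% with degrader. List medians lay between -0.10 and 0.38 with degrader and between 0.13 and 0.40 with KB-0742. Of 8 genes that make up or control P-TEFb, 2 to 4 passed as higher and 2 to 4 as lower in each KB-0742 comparison. With degrader these counts were 0 to 3 and 0 to 3. Fewer of all genes passed with degrader in most comparisons too (0.473% to 49.6%, against 23.9% to 49.2% with KB-0742). MEPCE, which caps its inhibitory RNA, passed as lower with degrader in 7 of 8 comparisons (-3.12 to -1.08) and with KB-0742 in all 7 (-1.98 to -1.17). HEXIM1, an inhibitory subunit, fell with KB-0742 in all 7 (-2.80 to -1.38). CCNT1, which encodes cyclin T1, rose with KB-0742 in all 7 (0.75 to 2.61) and CCNT2, which encodes cyclin T2, in all but RH4 at 4 h (0.83 to 2.73), both turned by spike-in scaling in MOLT4 at 2 h. With degrader CCNT2 passed as higher in MOLT4 (1.13, 1.49 and 1.39) and at 8 h in PSN1 (1.31) and RH4 (1.37), of which the MOLT4 value at 8 h turned with spike-in scaling. MYC, a short-lived transcript of a growth regulator, was lower with degrader in MOLT4 (-1.99, -2.77 and -1.91), in PSN1 at 2 and 4 h (-0.87 and -0.97) and in RH4 at 4 h (-1.11). With KB-0742 MYC passed as higher in MOLT4 at 2 and 4 h (0.91 and 1.02; 0.11 and -0.45 with spike-in scaling) and did not pass in the other comparisons. CDK9 mRNA passed only with KB-0742 at 8 h in MOLT4 (1.16) and RH4 (1.48), and both turned with spike-in scaling.

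Neighbouring genes give the local background. SETD5, 19121 bases from LHFPL4 on the opposite strand, rose with KB-0742 in MOLT4 at 4 and 8 h (1.01 and 1.58), PSN1 (1.40 and 2.03) and RH4 (1.12 and 1.81), with the MOLT4 value at 4 h turned by spike-in scaling, and with degrader passed only at 8 h in MOLT4 (0.48) and PSN1 (0.62), both turned. MTMR14, 95631 bases away on the other side, passed as lower with degrader in MOLT4 at 8 h (-1.59) and with KB-0742 in MOLT4 at 4 and 8 h (-1.15 and -0.71) and RH4 at 8 h (-1.57). Beside TNFRSF13C, SREBF2 (14715 bases away) passed as higher with degrader in MOLT4 at 4 and 8 h (0.88 and 1.65) and CENPM (11903 bases) at 4 h (0.41), all turned by spike-in scaling. With KB-0742 SREBF2 passed as higher in MOLT4 at 4 and 8 h (1.06 and 0.47) and RH4 (0.74 and 0.87), all turned, and CENPM fell at 8 h in MOLT4 (-0.92) and RH4 (-0.78). Next to TRIM66 the neighbours that passed the filter differed between lines, from SNORA3B at 2745 bases in PSN1 to EIF3F at 610175 bases in MOLT4. SNORA3B passed as higher in PSN1 with KB-0742 at 4 and 8 h (4.23 ± 1.05 and 3.36 ± 1.16) and did not pass with degrader. EIF3F passed as higher in MOLT4 with KB-0742 at 2, 4 and 8 h and with degrader at 4 and 8 h and turned with spike-in scaling, AKIP1 fell with KB-0742 at 4 and 8 h (-0.72 and -1.47) and with degrader at 8 h (-1.12), and DENND2B rose in RH4 with KB-0742 at 8 h (0.83; -0.68 with spike-in scaling).

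Likeness was measured as Pearson's r of log2 CPM (prior count 2) over the 91 libraries after removing each line's mean, among 9338 genes tested in all lines. These values are a description over libraries that share treatments, and they carry no test. The changes of the leading genes with treatment are a description too, since likeness over these same libraries chose them. LHFPL4 was most like IDI2-AS1 (0.871), EPHX3 (0.869) and LINC00862 (0.867). TNFRSF13C was most like CHRNA10 (0.827), LENG8 (0.826) and LINC01355 (0.823), and TRIM66 was most like PNISR (0.885), TRABD (0.868) and STX16 (0.839). By Spearman's rank correlation EPHX3 ranked only 30 for LHFPL4, and TRABD and STX16 ranked 12 and 5 for TRIM66. With spike-in scaling TRABD and STX16 ranked 13 and 12, and EPHX3 ranked 2. The other leading genes ranked 4 or better by both. Among themselves the 3 genes had r of 0.753 (LHFPL4 and TNFRSF13C), 0.681 (LHFPL4 and TRIM66) and 0.756 (TNFRSF13C and TRIM66), below the leading genes. The genes like TRIM66 included PNISR, which fell with KB-0742 in all 7 comparisons (-2.32 to -1.26) and with degrader passed as higher only in MOLT4 at 8 h (1.5; -1.41 with spike-in scaling). IDI2-AS1 passed as higher with degrader in 7 of 8 comparisons (2.82 to 5.71), where 3.47% to 20.8% of all genes did. Its likeness to LHFPL4, a gene chosen for being higher with degrader, makes such calls likely beforehand. IDI2-AS1 also passed as higher with KB-0742 at 8 h in MOLT4 (2.38) and RH4 (1.70). All of these kept their direction with spike-in scaling. LENG8 fell with KB-0742 in MOLT4 at 2 and 4 h (-0.96 and -0.56) and at 4 h in PSN1 (-0.89) and RH4 (-0.93), and was not among the KB-0742 calls at 8 h.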

How the data were processed

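RNA of 91 libraries was measured, and groups came from the labels. Per the labels' protocols, every lysate received the same quantity of ERCC and SIRV control RNA after thawing, and libraries came from 1 ng of RNA by reduced-volume SMART-seq2 with Nextera XT, without strand marks or molecular identifiers. The deposited tables of expected counts hold estimated counts per gene, rounded to whole numbers by the authors, and the submitters' processing notes name Salmon and hg38; versions are not given in the sources used here. The deposited log2 values are log2(TPM + 1), as tested on their sums.

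Counts were analysed in R 4.3.3 with edgeR 4.0.16, with 1 fit per line over all its groups (glmQLFit, robust, TMM scaling, filterByExpr with a minimum count of 10) and Benjamini-Hochberg adjustment per comparison at 0.05. 47 entries of the Y pseudoautosomal regions were left out, and genes below the filter held 0.437% to 0.683% of gene counts. The biological coefficient of variation was 0.210 in MOLT4, 0.252 in PSN1 and 0.217 in RH4. On simulated data with known changes, tests of 11664, 12471 and 12058 genes recovered 93% (MOLT4, KB-0742 at 2 h), 92% (PSN1, KB-0742 at 4 h) and 97% (RH4, KB-0742 at 4 h) of genes changed by 2 on the log2 scale, and 43%, 51% and 54% of those changed by 1. False calls made up 2.16% to 3.38% of the calls on simulated data. The simulation gave all genes the same dispersion and changed genes picked at random over all levels. Recovery of genes as low as the 3 studied was not measured apart. Intervals and floors cover counting error only, since PCR copies of a molecule are counted separately. Alternatives were spike-in and upper-quartile scaling, no filter, DESeq2 1.42.0, limma 3.58.1 on log2 TPM with pseudocounts of 1 and 0.1, a replicate block, fits of the compared groups only and leaving out each library. For genes other than the 3 studied, spike-in values are differences of group means of log2 CPM scaled to spike-in counts. Python 3.11.15 with pandas 2.3.3, numpy 2.4.6, scipy 1.17.1 and matplotlib 3.10.9 was used for tables and figures.

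The members and lists were chosen with earlier results of these data known. Named genes are the 3 members, up to 3 called members of each list with the largest change in the comparison described, the nearest tested gene on each side and overlapping genes, the 3 genes most alike to each member, CDK9 and MYC. Within each list only some comparisons are described, and some listed genes are not reported here. Of TRIM24, TRIM28, TRIM33, MS4A1 and PAX5 the mention was chosen after values were seen. Positions are from GENCODE release 29 and promoters from RefSeq, in which 2 of the 3 genes matched.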

Additional observations from a re-analysis of the deposited data

Results flagged for a closer look

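In 7 of 65 sets of 4 libraries with any spread, 1 library stood far from the other 3 for 1 of the genes, where chance gives about 1 in 20. LHFPL4 was highest in replicate 1 of MOLT4 KB-0742 at 8 h (14.9 CPM, next 4.69), in replicate 3 of PSN1 vehicle at 8 h (3.82 CPM, next 0.843) and in replicate 4 of PSN1 vehicle at 4 h (6.69 CPM, next 2.32). TNFRSF13C was highest in that same PSN1 vehicle library at 4 h (15.9 CPM, next 10.6) and in replicate 4 of RH4 vehicle at 8 h (32.9 CPM, next 23.4). TRIM66 was at 0 CPM in replicate 3 of MOLT4 KB-0742 at 4 h (next 2.59), a library with 49.4% spike-in, and at 23.7 CPM in replicate 1 of MOLT4 KI-CDK9d-32 at 2 h (next 17.9).

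The KB-0742 effect differed between 8 h and 4 h by the interaction test in 5 cases. The differences were 5.05 for LHFPL4 and 2.27 for TNFRSF13C in MOLT4, 4.37 and 3.83 in PSN1, and 1.34 for TNFRSF13C in RH4. Of all genes 17.7%, 1.88% and 8.49% passed in MOLT4, PSN1 and RH4. The calls in MOLT4 and RH4 were lost with spike-in scaling, and that in RH4 also without KB-0742 replicate 1 at 8 h. The MOLT4 value of LHFPL4 rests on a 4 h group with 3 counts and on a gene kept mainly through degrader libraries. At 8 h all 4 KB-0742 libraries lay above all vehicle libraries for TNFRSF13C in PSN1 and all 4 lay below in RH4, log2 effects that lie 1.65 apart, and this difference between lines was not tested.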

How the results depend on the processing

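Values that changed their direction, call or size are given below, those between the compounds mostly as counts. Where the cause is not stated, the cause was not tested. Of 24 differences between degrader and vehicle, spike-in scaling, whose library sizes come from the spike-in counts, moved 15 and turned 5, and limma on log2(TPM + 1) moved 20 and turned 2. Of 21 between degrader and inhibitor, 12 moved with spike-in scaling, 19 with limma on log2(TPM + 1), 5 with limma on log2(TPM + 0.1) and 1 with DESeq2, and none turned. With spike-in scaling the values were as follows. With degrader in MOLT4 it gave 1.03 for TNFRSF13C and 0.67 for TRIM66 at 2 h, 3.18 for LHFPL4, 1.06 for TNFRSF13C and 0.86 for TRIM66 at 4 h and 3.03 for LHFPL4, -0.11 for TNFRSF13C and -0.75 for TRIM66 at 8 h. With inhibitor in MOLT4 it gave -3.57 for LHFPL4 at 4 h and -0.19 for TNFRSF13C at 8 h. In MOLT4 it gave -0.19 for TNFRSF13C in the inhibitor effect of 4 h less 2 h. With degrader in PSN1 it gave -0.070 for TNFRSF13C at 2 h, 0.21 for TNFRSF13C and 0.26 for TRIM66 at 4 h and 4.75 for LHFPL4, 0.39 for TNFRSF13C and -0.44 for TRIM66 at 8 h. With inhibitor in PSN1 it gave -0.38 for TNFRSF13C at 8 h. With degrader in RH4 it gave 4.11 for LHFPL4, 0.011 for TNFRSF13C and 0.76 for TRIM66 at 4 h and 3.76 for LHFPL4, -0.11 for TNFRSF13C and 0.71 for TRIM66 at 8 h. With inhibitor in RH4 it gave -0.58 for LHFPL4 at 4 h and -1.71 for LHFPL4 at 8 h. In RH4 it gave -0.48 for TRIM66 in the inhibitor effect of 8 h less 4 h. It called 5343 and 5984 genes for the inhibitor in PSN1 at 4 and 8 h (2982 and 3767 with TMM) and 7519 and 9509 in RH4 (3814 and 5482). For degrader it called 213 genes in MOLT4 at 2 h (1163 with TMM) and 10709 at 8 h (5780), in PSN1 15, 1645 and 6521 (59, 918 and 2575), and in RH4 105 and 6311 (644 and 1840). Between the compounds it called 485 and 1639 in MOLT4 at 2 and 4 h (2138 and 4160) and 1318 and 1527 in PSN1 at 4 and 8 h (2176 and 3093). For the inhibitor effect of 8 h less 4 h it called 0 genes in MOLT4 (2070; 888 at an unadjusted p under 0.05), 2 in PSN1 (235) and 305 in RH4 (1024). Limma on log2(TPM + 1) shrinks low genes by construction. With degrader in MOLT4 it gave 1.60 for LHFPL4, 0.88 for TNFRSF13C and 0.43 for TRIM66 at 2 h, 2.17 for LHFPL4, 1.11 for TNFRSF13C and 0.79 for TRIM66 at 4 h and 2.29 for LHFPL4, 1.24 for TNFRSF13C and 0.43 for TRIM66 at 8 h. With inhibitor in MOLT4 it gave 0.13 for TNFRSF13C at 8 h. In MOLT4 it gave -0.0029 for TRIM66 in the inhibitor effect of 8 h less 4 h. With degrader in PSN1 it gave 1.58 for LHFPL4 and -0.019 for TNFRSF13C at 2 h, 2.87 for LHFPL4, 0.32 for TNFRSF13C and 0.36 for TRIM66 at 4 h and 3.23 for LHFPL4, 0.51 for TNFRSF13C and -0.012 for TRIM66 at 8 h. With inhibitor in PSN1 it gave -0.50 for LHFPL4 at 4 h. With degrader in RH4 it gave 2.69 for LHFPL4 and 0.62 for TRIM66 at 4 h and 2.94 for LHFPL4, 0.23 for TNFRSF13C and 0.75 for TRIM66 at 8 h. With inhibitor in RH4 it gave -0.046 for LHFPL4 at 4 h. It called 4685 genes for the inhibitor in MOLT4 at 2 h (3041 with edgeR) and 5831 in RH4 at 4 h (3814). Limma on log2(TPM + 0.1) was also run. With degrader in MOLT4 it gave 0.74 for TRIM66 at 2 h, 3.49 for LHFPL4, 1.38 for TNFRSF13C and 1.31 for TRIM66 at 4 h and 4.22 for LHFPL4, 1.51 for TNFRSF13C and 0.75 for TRIM66 at 8 h. With inhibitor in MOLT4 it gave -1.74 for LHFPL4 at 4 h and 0.12 for TNFRSF13C at 8 h. With degrader in PSN1 it gave -0.028 for TNFRSF13C at 2 h, 0.41 for TNFRSF13C and 0.50 for TRIM66 at 4 h and 5.05 for LHFPL4, 0.79 for TNFRSF13C and -0.031 for TRIM66 at 8 h. With degrader in RH4 it gave 4.03 for LHFPL4 at 4 h and 0.25 for TNFRSF13C and 1.04 for TRIM66 at 8 h. With inhibitor in RH4 it gave -0.14 for LHFPL4 at 4 h. In RH4 it gave -0.13 for TRIM66 in the inhibitor effect of 8 h less 4 h. LHFPL4 with inhibitor in MOLT4 at 4 h, not called in the main analysis, passed with DESeq2 (-2.25), without the count filter (-2.16) and with the replicate block (-2.08). LHFPL4 with inhibitor in PSN1 at 4 h did not pass when only the groups compared were fitted (-1.97). Upper-quartile scaling gave 2.94 for TNFRSF13C with degrader in MOLT4 at 8 h. Leaving out the 4 libraries over 35% spike-in, an alternative chosen after seeing the data, turned the TRIM66 inhibitor effect of 4 h less 2 h in MOLT4 to 0.067 and changed no other call or direction of the 3 genes. Leaving out 1 library at a time changed a call, a direction or the size of the following values, whose ranges were -3.15 to -1.55 for LHFPL4 in MOLT4 with inhibitor at 4 h, -1.39 to -1.04 for TNFRSF13C in MOLT4 with inhibitor at 4 h, 4.02 to 4.75 for LHFPL4 in MOLT4 with degrader at 4 h and 0.66 to 1.32 for TNFRSF13C in MOLT4 with inhibitor at 8 h. They were -0.52 to 0.086 for TRIM66 in MOLT4 in the inhibitor effect of 4 h less 2 h, -2.31 to -1.32 for LHFPL4 in PSN1 with inhibitor at 4 h, 4.28 to 5.13 for LHFPL4 in PSN1 with degrader at 4 h and 5.47 to 6.71 for LHFPL4 in PSN1 with degrader at 8 h. Between degrader and inhibitor they were 5.83 to 7.43 and 2.68 to 3.79 for LHFPL4 in MOLT4 at 4 and 8 h and 3.74 to 4.47 for TRIM66 in RH4 at 8 h. Others were -0.47 to 0.40 for LHFPL4 in RH4 with inhibitor at 8 h and -0.46 to 0.34 for TRIM66 in RH4 in the inhibitor effect of 8 h less 4 h. Replicate numbers do not mark pairs in the labels, and correlations of same-numbered libraries over 0.1 were seen in 0 of 136 pairs in MOLT4, 24 of 112 in PSN1 and 10 of 60 in RH4, while 29 of 35, 30 of 32 and 22 of 24 libraries correlated best with their own number, a hint from the data only. Besides the value above, the replicate block changed no call of the 3 genes, and it moved calls over all genes from 59 to 138 and 918 to 1455 for degrader in PSN1 at 2 and 4 h, from 644 to 1035 in RH4 at 4 h and from 235 to 426 for the PSN1 inhibitor effect. DESeq2 called 126 genes for degrader in PSN1 at 2 h, 709 for the MOLT4 inhibitor effect of 4 h less 2 h (367 with edgeR) and 398 for that of 8 h less 4 h in PSN1. Depth limits LHFPL4 most, with 0 to 3 counts per group in MOLT4 inhibitor libraries at 2 and 4 h.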
